A study of Mus musculus with 2 samples.

Results

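The genes described here are 10 mouse genes for chains of cytokine receptors that B cells can carry: Il21r, Il4ra, Il6ra, Il2ra, Il2rg, Il5ra, Il7r, Il9r, Il10ra and Ifngr1. The list is of gene names, with no threshold on a measured value, and was drawn up with earlier results of these data known. Binding of the transcription factor IRF4 was mapped by ChIP-seq, in which chromatin is precipitated with an antibody and its DNA sequenced. The cells were CH12.LX, an immortalized B-cell lymphoma line from a female mouse of strain B10.H-2aH-4bp/Wts. The samples form 1 group of 2 biological replicates, with no treatment and no second condition, and the labels say nothing of separate cultures. Both come from 1 cell line, so the values describe that line and not primary B cells. The list used first, called optimal, holds 44058 peaks that the depositors made from both replicates and kept by the irreproducible discovery rate (IDR). A peak in this list need not have passed a direct comparison of the 2 replicates. A summit, the highest point of a peak, was given to a gene when it lay in the gene body or within 10 kb of either end, in RefSeq GRCm38 (mm10) coordinates. By this rule 65 of the 44058 summits fell to the 10 receptor genes, out of 21887 protein-coding genes. Each peak carries a signal from the authors' caller, which ranks peaks within a list. Its scale is not stated, and the read depth is unknown.

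Cytokine receptors of this kind have no kinase of their own. When a cytokine draws their chains together, Janus kinases (JAKs) on the chains phosphorylate STAT transcription factors, and SOCS proteins damp the response. In B cells IL-21, IL-4 and IL-6 steer germinal centre reactions, class switching and plasma cell formation, and IRF4 is itself needed for class switching and plasma cells. On DNA, IRF4 is known to pair with the ETS factors PU.1 and Spi-B at the ETS-IRF composite element (EICE) and with BATF and JUN at the AP-1-IRF composite element (AICE). It also binds tandem IRF sites (the ISRE).

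IRF4 summits lay at 9 of the 10 receptor genes, all except Il9r, while 61.6% of all protein-coding genes had a summit in the same window. Il6ra had 18 summits, Il21r and Il2ra 13 each, Il5ra 5 and Il10ra 4, and Il4ra, Il2rg, Il7r and Ifngr1 had 3 each. The median was 3.5 summits per receptor gene, against 1 over all protein-coding genes, whose 75th and 90th percentiles were 3 and 5. The receptor genes are somewhat longer than most, with a median length of 25.5 kb against 17.2 kb. Among the 12865 genes within their length range, 3.87 to 50.4 kb, the median was also 1 summit and 65.5% of genes had one. Per 100 kb of window, the receptor genes had a median of 9.93 summits, against 2.26 over all genes and 4.58 over genes with a summit. Of the 65 summits, 37 lay in gene bodies, 21 upstream and 7 downstream, with no such count over all summits. No test was made of these counts, since the genes form a chosen list.

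**Figure D1:**
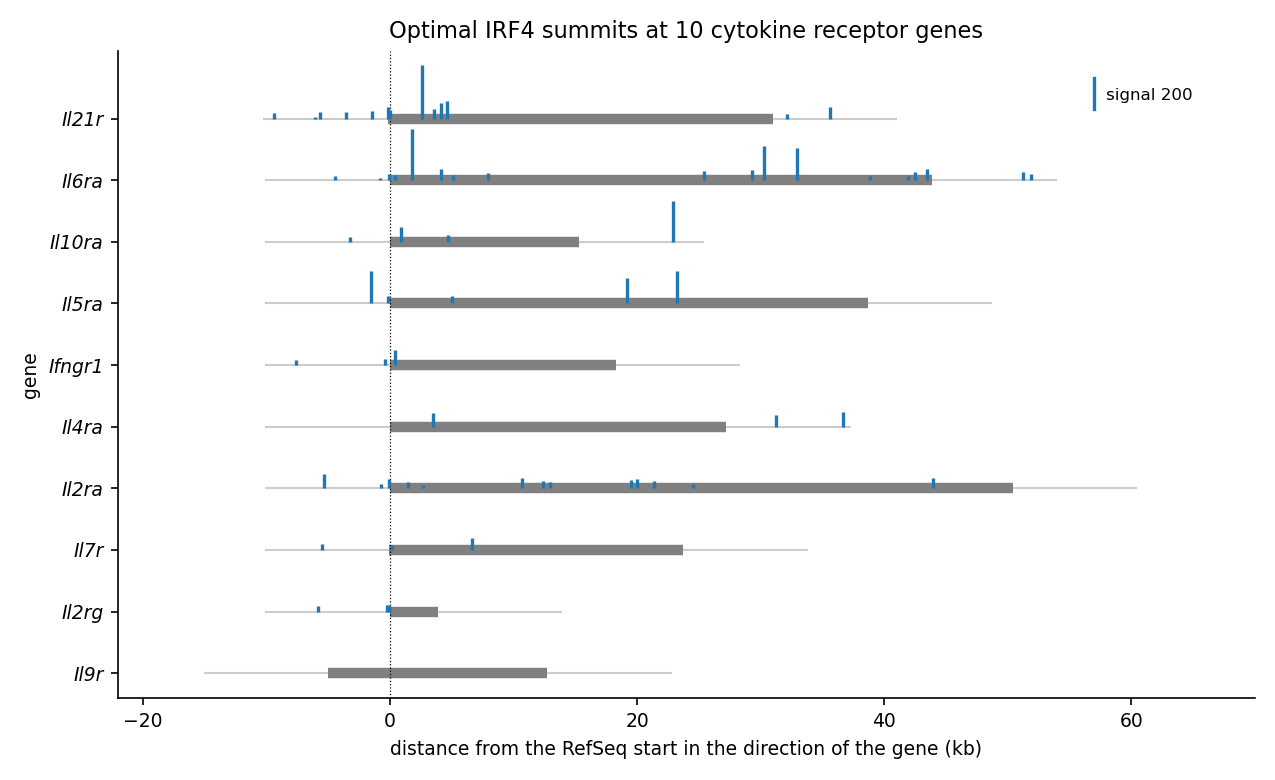
Optimal IRF4 summits along the 10 receptor genes. The x axis is the distance from the RefSeq start in the direction of the gene (kb), thick bars are gene bodies, thin lines are the 10 kb flanks, and the height of each blue line is the peak's signal, with a line of signal 200 as scale. Il6ra, Il21r and Il2ra carry 18, 13 and 13 summits, and lines of 200 or more stand at Il21r, Il6ra, Il10ra and Il5ra.

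Strong summits were found at 4 of the genes. A signal of 200 or more occurred at Il21r, Il6ra, Il10ra and Il5ra, beside 4.31% of all protein-coding genes, and 7 receptor summits (10.8%) reached it, against 3.06% of all optimal summits. The strongest summit per gene had a signal of 346.5 at Il21r, 333.1 at Il6ra, 263.2 at Il10ra and 210.3 at Il5ra. A middle group followed, with 99.6 at Ifngr1, 97.76 at Il4ra, 92.03 at Il2ra and 74.79 at Il7r, and Il2rg was lowest with 42.73. The order of neighbours differed between replicates: replicate 1 put Il6ra above Il21r (177.4 and 160.4) and replicate 2 put Il21r above Il6ra (183.5 and 162.8). Likewise Ifngr1, Il4ra and Il2ra had 43.29, 39.73 and 32.99 in replicate 1, but 54.96, 55.44 and 55.76 in replicate 2. The median strongest signal was 99.6 over the 9 receptor genes with a summit, against 58.3 over all genes with one. The median over all 65 receptor summits was 49.98, against 41.4 over all optimal summits. Of the 65, 21 (32.3%) were in the top quartile of all optimal summits by signal and 6 (9.23%) in the bottom quartile.

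**Figure D2:**
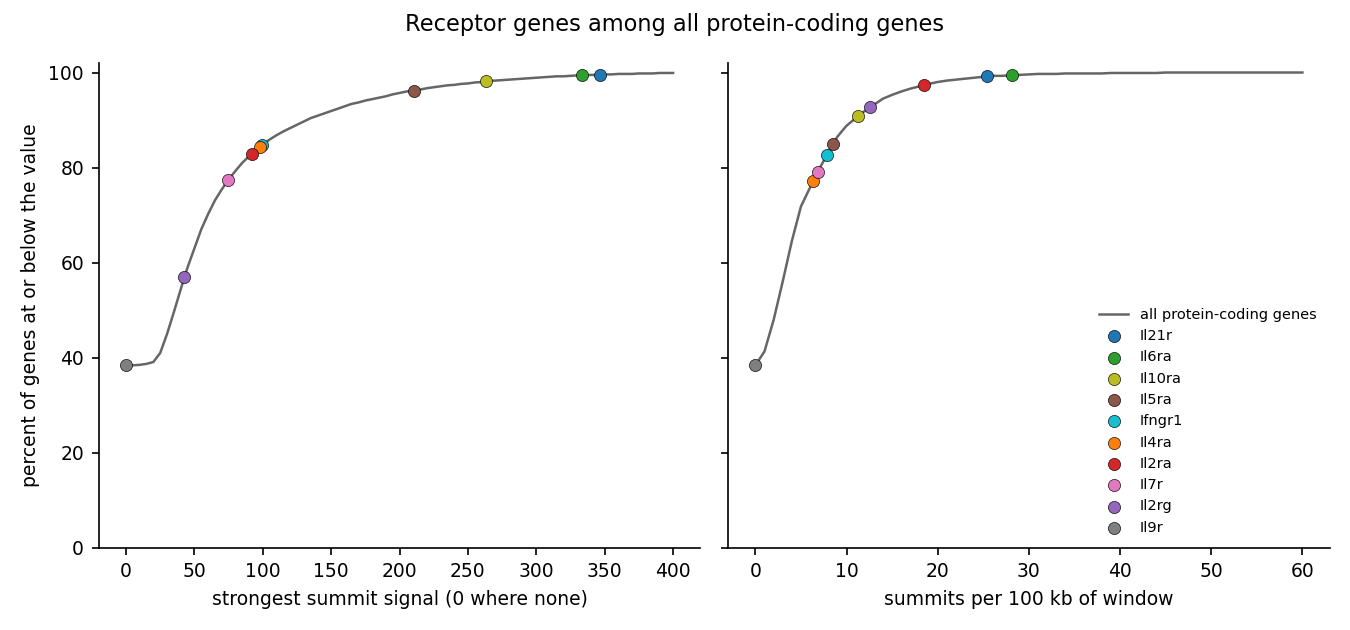
Each receptor gene among all protein-coding genes. The y axis is the percent of the 21887 genes at or below the value on the x axis, which is the signal of the gene's strongest optimal summit (left, 0 where a gene has none) or its summits per 100 kb of window (right). Il21r and Il6ra lie above 99% of genes in both panels. Il9r has the x value 0 in both, as do all genes without an optimal summit, 38.4% of the total.

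The common gamma chain pairs with the private chains for IL-2, IL-4, IL-7, IL-9 and IL-21. Among these private chains, Il21r encodes the receptor of IL-21, a cytokine of follicular helper T cells that drives B cells to plasma cells. Il21r (chr7:125603252-125634397, plus strand) carried the strongest of the 65 summits, rank 117 of all optimal peaks, 2583 bp downstream of its start (peak chr7:125605859-125606156). Its signal was 346.5 in the list, 160.4 in replicate 1 and 183.5 in replicate 2. The next strongest summits lay close by, 4628 bp downstream of the start with 112.7 (33.33 and 81.51 in replicates 1 and 2) and 4111 bp downstream with 98.07 (40.34 and 61.2). A summit 4637 bp past the 3′ end had 74.97 (40.55 and 34), and one at the promoter, 183 bp upstream of the start, had 72.69 (27.45 and 47.27). Of the 13 summits, 11 lay within 10 kb of the start, spread over 13992 bp, and both downstream summits also fell in the window of Gtf3c1. The gene had 25.4 summits per 100 kb, more than 99.2% of genes. On mm9, the build with a genome sequence here, the strongest peak lay 2575 bp from the same start, in intron 1, with a signal of 718.6 on that list's own scale. The sequence from 50 bp before to 50 bp after its summit, the window used unless stated, is shown because none of the 7 motifs searched was found in it.

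Il21r summit window, chr7:132749468-132749568 (mm9, plus strand): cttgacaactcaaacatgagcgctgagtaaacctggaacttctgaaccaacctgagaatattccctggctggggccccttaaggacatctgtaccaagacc

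Il4ra, the next gene upstream on the same strand (chr7:125552271-125579474), encodes the alpha chain for IL-4 and IL-13, which directs class switching to IgG1 and IgE in mouse B cells. Its 3 summits had moderate signals. The strongest, 9435 bp past its 3′ end, had 97.76 (39.73 and 55.44 in replicates 1 and 2). One 3452 bp downstream of its start had 88.22 (36.43 and 51.45), and one 4085 bp past the 3′ end had 75.98 (38.29 and 39.71). Both downstream summits are nearer to the start of Il21r, at 14520 and 19870 bp, than to that of Il4ra. The genes lie 23777 bp apart and their windows 3778 bp apart, so no summit was counted for both. Together the windows held 16 summits, of which 8 lay between the genes. No optimal summit lay within 1 kb of the Il4ra start. The conservative list, a shorter IDR list, had a weak one 19 bp upstream (18.99). This summit had no match in replicate 1 and 17.29 in replicate 2. The downstream peak 31288 bp from the start held an ISRE, in capitals below.

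Il4ra summit window, chr7:132727023-132727123 (mm9, plus strand): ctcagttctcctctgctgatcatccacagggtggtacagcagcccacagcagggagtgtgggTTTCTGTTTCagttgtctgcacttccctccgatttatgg

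Il2ra encodes CD25, the alpha chain that gives the IL-2 receptor its high affinity (chr2:11642792-11693194, plus strand). It had many summits and no strong one. None of its 13 signals passed 100, and 10 lay within the gene body. The strongest had 92.03 (32.99 and 55.76 in replicates 1 and 2), 5357 bp upstream of the start. The next were 65.67 (21.09 and 42.76) at 43919 bp downstream, 64.77 (34.2 and 29.92) at 10696 bp, 63.38 (35.85 and 36.79) at the promoter 106 bp upstream, and 58.29 (25.73 and 30.83) at 19987 bp. By count Il2ra lay above 98.7% of genes, and by strongest signal above 82.9%. A pair of mm9 peaks in intron 1, 19498 and 19998 bp from the start, each held an EICE, in capitals. On the minus strand the first of them starts with the ETS word GGAAGTGA.

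Il2ra summit window, chr2:11583867-11583967 (mm9, plus strand): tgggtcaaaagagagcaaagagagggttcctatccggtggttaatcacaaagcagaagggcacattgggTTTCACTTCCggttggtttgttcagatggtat
Il2ra summit window, chr2:11584367-11584467 (mm9, plus strand): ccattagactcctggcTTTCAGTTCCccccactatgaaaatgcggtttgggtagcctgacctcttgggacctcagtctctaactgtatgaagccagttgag

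The promoter of Il2ra, from RefSeq, is shown because a summit lay at its position 145 of 250, counted from the 5′ end. It held none of the 7 motifs.

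Il2ra promoter, chr2:11642542-11642791 (GRCm38, plus strand): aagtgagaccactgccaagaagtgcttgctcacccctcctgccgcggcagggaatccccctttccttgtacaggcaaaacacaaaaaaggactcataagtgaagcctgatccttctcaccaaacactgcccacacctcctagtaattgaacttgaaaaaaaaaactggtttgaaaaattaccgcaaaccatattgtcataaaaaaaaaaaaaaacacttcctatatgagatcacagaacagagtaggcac

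Il7r encodes the IL-7 receptor alpha chain, needed by B-cell precursors and shut down in mature B cells (chr15:9506159-9529941, minus strand). Its 3 summits had signals of 74.79 (36.22 and 40.72 in replicates 1 and 2) at 6617 bp downstream of the start, 41.42 (20.56 and 16.73) at 5510 bp upstream, and 32.6 (15.79 and 13.71) at 199 bp downstream. The last 2 were higher in replicate 1 than in replicate 2, unlike most receptor summits. The strongest lay in intron 2 on mm9, with no motif within 50 bp of it and an ISRE within 100 bp. The mm9 peak nearest the start had an AP-1 site within 50 bp and, within 100 bp, an AICE of the adjoining form. Hits only in this wider window were not particular to Il7r. On mm9, the Il21r peak 4621 bp downstream and the Il2ra peak 5390 bp upstream also had an ISRE within 100 bp. An EICE, ISRE or AICE lay within 100 bp at 19.6% of receptor peaks and 19.7% of all mm9 peaks.

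Il9r, the gene for the IL-9 receptor chain (chr11:32187544-32205283, minus strand), was the only one of the 10 without an optimal summit. Of the 1609 protein-coding genes on chromosome 11, 1287 (80.0%) had one. The conservative list had summits of 31.36 (11.49 and 19.05 in replicates 1 and 2) at 4809 bp and 19.73 (no match in replicate 1, 16.37 in replicate 2) at 2141 bp upstream of the start, both inside the gene body as RefSeq draws it. The mm9 list had 3 peaks, with signals of 69.38, 54.81 and 45.82. Whether Il9r counts as having a summit therefore depended on the list.

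Il2rg, the common gamma chain itself (chrX:101264385-101268255, minus strand), had the weakest strongest summit of the 9 genes. Its signals were 42.73 at 45 bp upstream of the start (no match within 100 bp in replicate 1, 27.11 in replicate 2), 41.53 at 274 bp upstream (29.71 in replicate 1 and 10.85 in replicate 2), and 38.96 at 5829 bp upstream (24.29 and 13.56). The first 2 lie 229 bp apart. Replicate 1 had its peak at the farther of them, and replicate 2 was higher at the nearer. All 3 also fell in the window of Med12, 2 in those of Foxo4 and Gm614, and the last lay 7 bp from the Med12 start. Only 1 of the 3 was in the conservative list. On the X chromosome 25.9% of 966 protein-coding genes had a summit.

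Il6ra encodes the IL-6 receptor alpha chain, which signals through the shared chain gp130 and STAT3 (chr3:89869324-89913196, minus strand). With 18 summits, 13 of them in the gene body, it had the highest count of the 10 and 28.2 per 100 kb, more than 99.4% of genes. The strongest, 333.1 (177.4 and 162.8 in replicates 1 and 2), lay 1786 bp downstream of the start (peak chr3:89911245-89911542) and ranked 159 of all optimal peaks. A pair of strong summits followed far into the gene, with 222.0 (102.7 and 116.6) at 30275 bp and 206.4 (89.79 and 118.6) at 32936 bp, both also within the annotated gene Gm46811. The remaining 15 had 72.82 or less. That value, 43457 bp downstream near the 3′ end, had 9.768 in replicate 1 and 65.39 in replicate 2 and was absent from the conservative list, and 72.47 (36.45 and 41.45) at 4128 bp was the fifth. Both summits past the 3′ end also fell in the window of She. The peaks shown are the strongest, in intron 1, with an EICE whose GGAAGTGA part is also the ETS word, and the peak at 32936 bp, in intron 6, with an AP-1 site. The mm9 peak at 30268 bp held none of the motifs.

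Il6ra summit window, chr3:89715282-89715382 (mm9, plus strand): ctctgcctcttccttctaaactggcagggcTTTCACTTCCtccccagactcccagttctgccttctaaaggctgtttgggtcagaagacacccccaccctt
Il6ra summit window, chr3:89684132-89684232 (mm9, plus strand): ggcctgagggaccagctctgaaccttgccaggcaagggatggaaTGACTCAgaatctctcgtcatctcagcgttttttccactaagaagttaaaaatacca

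Il5ra encodes the alpha chain for IL-5, a growth and antibody-secretion factor for mouse B-1 cells that pairs with the common beta chain (chr6:106710375-106749037, minus strand). Of its 5 summits 3 had signals above 100. One 1511 bp upstream of the start had 210.3 (79.04 and 130.2 in replicates 1 and 2), one 23198 bp downstream had 208.4 (90.99 and 117.0), and one 19159 bp downstream had 163.3 (62.27 and 100.1). The others were 46.64 (16.86 and 31.12) at 138 bp upstream and 45.34 (18.8 and 27.24) at 4994 bp downstream. All 5 were in the conservative list, and all 5 were higher in replicate 2, as were 82.8% of all matched optimal summits. The intronic peak at 19159 bp, in intron 8 of the mm9 transcript, held an EICE at 2 places, and the peak at 23228 bp in the same intron held AP-1 sites at 2 places. The upstream peak held none of the motifs within 100 bp.

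Il5ra summit window, chr6:106679822-106679922 (mm9, plus strand): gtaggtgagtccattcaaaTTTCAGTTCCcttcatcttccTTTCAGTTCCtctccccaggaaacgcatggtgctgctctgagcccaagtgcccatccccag
Il5ra summit window, chr6:106675753-106675853 (mm9, plus strand): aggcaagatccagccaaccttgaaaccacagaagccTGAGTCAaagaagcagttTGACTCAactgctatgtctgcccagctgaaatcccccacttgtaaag
Il5ra summit window, chr6:106700493-106700593 (mm9, plus strand): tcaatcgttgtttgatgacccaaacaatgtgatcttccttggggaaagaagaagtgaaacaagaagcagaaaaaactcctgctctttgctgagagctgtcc

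In the Il5ra promoter the summit lay at position 113 of 250, and an AP-1 site, in capitals, started at position 152.

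Il5ra promoter, chr6:106749038-106749287 (GRCm38, minus strand): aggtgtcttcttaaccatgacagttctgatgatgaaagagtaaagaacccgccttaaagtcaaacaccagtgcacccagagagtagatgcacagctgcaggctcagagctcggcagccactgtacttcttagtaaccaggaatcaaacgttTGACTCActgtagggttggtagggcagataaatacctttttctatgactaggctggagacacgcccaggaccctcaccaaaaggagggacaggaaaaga

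The last genes encode chains of class II cytokine receptors. Il10ra, the ligand-binding chain for the anti-inflammatory cytokine IL-10 (chr9:45253837-45269149, minus strand), had its strongest summit, 263.2 (116.9 and 147.4 in replicates 1 and 2), 7594 bp past the 3′ end and inside the neighbouring gene BC049352. It ranked 557 of all optimal peaks, and to which gene it belongs cannot be told from position. The next, 920 bp downstream of the start in intron 1, had 95.11 (37.31 and 60.41) and a GAS site within 50 bp. The others were 44.3 (10.73 and 32.47) at 4705 bp downstream, in exon 5 and with an ISRE within 50 bp, and 32.03 (11.73 and 23.18) at 3224 bp upstream. Without the summit inside BC049352, the strongest signal at Il10ra would be 95.11. The mm9 peaks past the 3′ end and in exon 5 are shown.

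Il10ra summit window, chr9:45054279-45054379 (mm9, plus strand): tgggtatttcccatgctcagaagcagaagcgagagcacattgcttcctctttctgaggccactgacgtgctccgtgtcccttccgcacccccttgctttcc
Il10ra summit window, chr9:45072477-45072577 (mm9, plus strand): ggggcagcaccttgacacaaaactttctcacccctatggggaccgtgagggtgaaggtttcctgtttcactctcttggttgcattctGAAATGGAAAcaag

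Ifngr1, the ligand-binding chain for interferon gamma (chr10:19591949-19610229, plus strand), had its summits near the start. They were 99.6 (43.29 and 54.96 in replicates 1 and 2) at 372 bp downstream, 38.0 (14.98 and 19.64) at 429 bp upstream and 30.63 (12.2 and 18.65) at 7634 bp upstream. All 3 were in the conservative list. The mm9 peak in intron 1 held none of the motifs.

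Promoters were often among the sites. Of the 9 receptor genes with a start in the RefSeq promoter table (all but Il10ra), 7 had a summit within 1 kb of the start, all but Il4ra and Il9r, beside 34.6% of all genes with a start. These 13 summits were mostly modest: the highest were 99.6 at Ifngr1 and 72.69 at Il21r. The 7 summits of 200 or more all lay over 1 kb from a start. Distance from a start was not counted over all optimal summits, so this contrast has no background.

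The shorter conservative list gave a similar picture with 1 more gene. It had 58 summits at all 10 receptor genes, beside 56.7% of all protein-coding genes. Of the 65 optimal summits, 51 (78.5%) were in it and 14 were not, beside 31856 of all 44058 optimal peaks that were in it. Another 7 conservative summits were not in the optimal list. The mm9 list, made from the alignments of both replicates together, had 51 peaks at the 10 genes, of which 44 lay within 100 bp of the distance of an optimal summit from the same start.

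**Figure D3:**
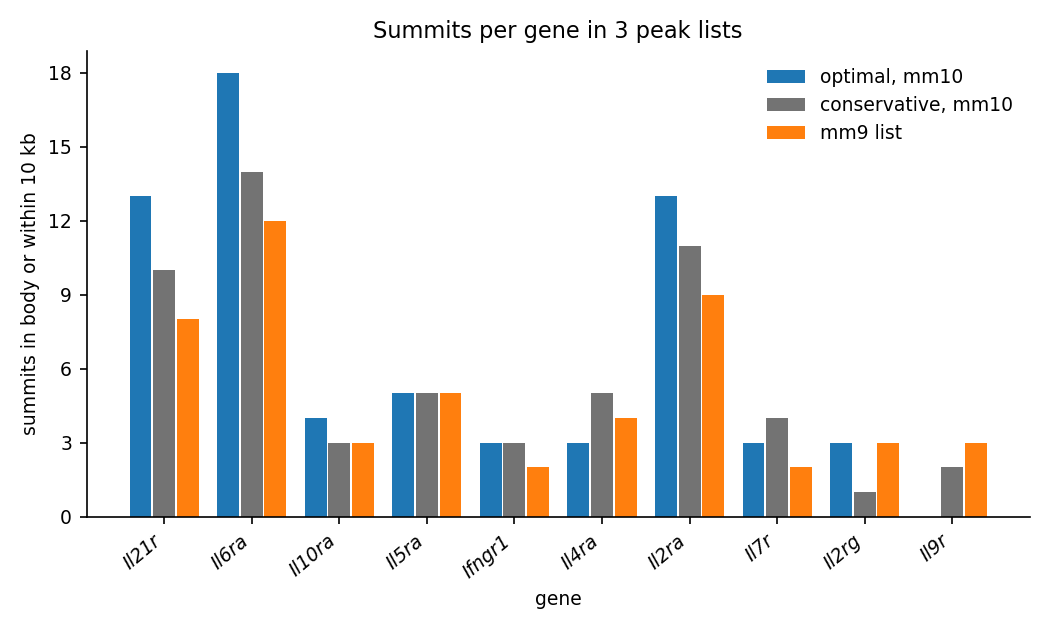
Summits per receptor gene in 3 of the deposited peak lists. Bars give the number of summits in the gene body or within 10 kb (y axis) for each gene (x axis) in the optimal list, the conservative list and the mm9 list. Il6ra, Il21r and Il2ra are the highest in each list, and Il9r has 0, 2 and 3.

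Most receptor summits had a counterpart in both replicate lists. Of the 65 receptor summits, 60 (92.3%) had a summit within 100 bp in both replicate lists, against 85.4% of all optimal summits. In replicate 1, 4 had none, and in replicate 2, 1 had none. These lists are relaxed, with 215095 peaks in replicate 1 and 300000 in replicate 2, so a match is a loose requirement. With only the strongest replicate peaks, 48 of the 65 matched in both. The share of all optimal summits was not taken under this stricter match, so 48 has no background. The log2 ratio of the signal in replicate 2 to that in replicate 1 had a median of 0.49 over the 60, against 0.53 over all matched optimal summits, whose 10th and 90th percentiles were -0.23 and 1.37. Replicate 2 was higher at 49 of the 60 and replicate 1 at 11, while replicate 2 was higher at 82.8% of all matched optimal summits. The ratio ran from -1.45 at the Il2rg summit 274 bp upstream to 2.84 at the Il21r summit 3525 bp downstream, which had 7.038 in replicate 1 and 50.49 in replicate 2. Neither of these was in the conservative list, nor was the Il6ra summit 43457 bp downstream or the one 416 bp downstream (23.19 and 8.875). With 2 replicates no test of a summit was possible.

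**Figure D4:**
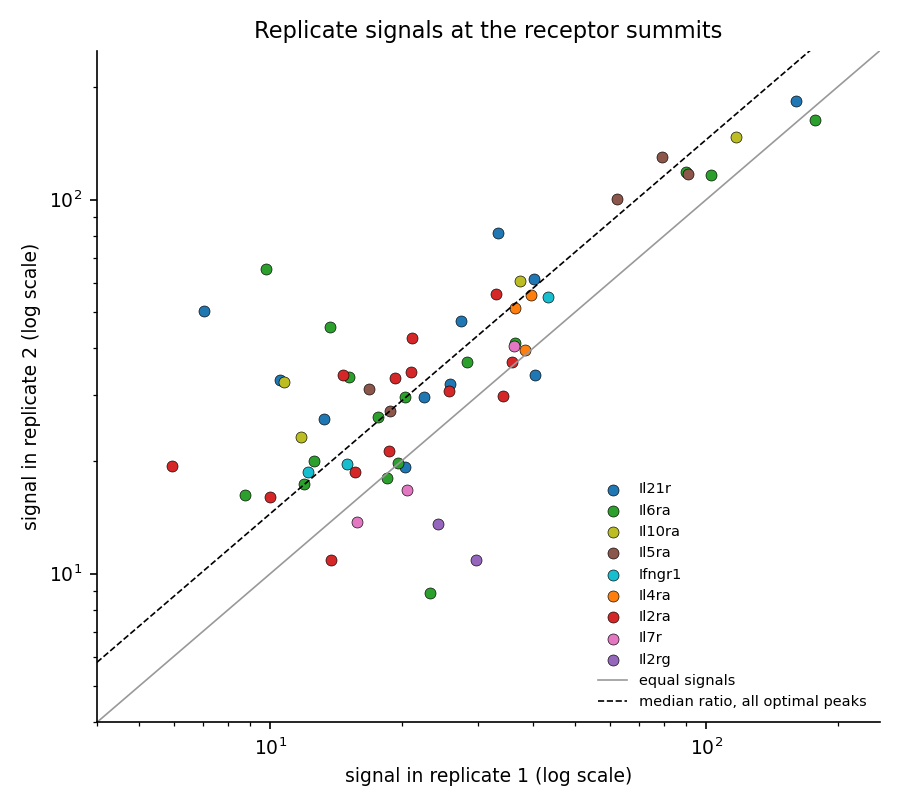
Signals of the replicates at the 60 receptor summits matched in both. The x axis is the signal in replicate 1 and the y axis that in replicate 2, both on log scales, and each point is a summit coloured by gene. The solid line marks equal signals and the dashed line the median ratio of all matched optimal peaks, and 49 points lie above the solid line.

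The sequence under the peaks was read on mm9, within 50 bp of each of the 51 summits. Searched on both strands were EICE (GGAANNGAAA), ISRE (GAAANNGAAA), AICE with adjoining sites (GAAATGANTCA), AICE with a gap (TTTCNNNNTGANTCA), AP-1 (TGANTCA), the STAT site GAS (TTCNNNGAA) and the ETS word GGAAGTGA. An EICE can hold the ETS word, and each AICE holds an AP-1 site. An EICE, ISRE or AICE was at 6 of the 51 receptor peaks, 11.8% (95% Wilson interval 5.51 to 23.4), against 16.0% of all 27671 mm9 peaks and 2.5% of windows 300 bp away. The interval includes the value of all peaks. It treats the 51 peaks as independent, though they share 10 genes of a chosen list, so it describes counting error only and is no test. EICE was at 4 (7.84% against 8.68%), ISRE at 2 (3.92% against 5.79%) and each AICE at 0 of 51, which allows a share of up to 5.88% (against 1.13% and 1.12%). AP-1 was at 6 (11.8% against 16.0%), the ETS word at 5 (9.8% against 6.81%) and GAS at 3 (5.88% against 3.52%). In windows 300 bp away from all mm9 peaks, AP-1 was at 2.83%, the ETS word at 0.546% and GAS at 3.02%. GAS was thus hardly more frequent under all peaks than beside them. Of the 51 peaks, 33 held none of the 7, and the share of all mm9 peaks without any was not taken. Among the 13 receptor peaks in the top quartile of the mm9 list, 2 held an IRF element, against 26.2% of all peaks in that quartile. By annotation, 24 of the 51 lay in introns (17 in intron 1), 6 in exons, 14 upstream and 7 downstream. Places were not counted over all mm9 peaks, so they do not set the receptor peaks apart. Among the 32851 RefSeq promoter sequences of 300 bases, 2.72% held an EICE and 7.81% an AP-1 site; of the 9 receptor promoters, those of Il5ra (AP-1) and Il7r (GAS, which 8.3% held) had any of the motifs.

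Related genes of the pathway were counted in the same window, and the lists were chosen with results of these data known. Of 7 partner chains, 6 had a summit, all but Il13ra1, with the strongest at Il2rb, the beta chain of the IL-2 and IL-15 receptors (298.2, with 134.8 and 163.0 in replicates 1 and 2), then Ifngr2, the signalling chain for interferon gamma (198.4, with 93.33 and 104.1), and Il6st, the gene of gp130 (155.0, with 62.07 and 92.45). Of 25 other receptors of the same superfamily 17 had one, with the strongest at Ifnar2 (234.3), Il12rb1 (215.2) and Ifnlr1 (161.4). The share of all protein-coding genes with a summit in this window, 61.6%, is the background for each of these counts. All 4 JAK genes had a summit (Tyk2 93.67, Jak2 89.73 and Jak3 86.23 were the strongest), as did all 7 STAT genes, among them Stat3 (194.8) and Stat4 (183.2). Of 8 SOCS genes 7 had one, all but Socs6, with the strongest at Socs5 (319.1), Socs1 (255.7) and Socs3 (157.2). A signal of 200 was reached by no JAK gene and by 2 of the SOCS genes, beside 4.31% of all protein-coding genes. With 4 and 8 genes, these counts do not set the lists apart. Over the genes with a summit, the median strongest signal was 147.0 for the partner chains, 140.0 for the STAT, 94.9 for the SOCS and 88.0 for the JAK genes and 38.6 for the other receptors. The 9 receptor genes above, with 99.6, lay within this range, and the value over all genes with a summit was 58.3.

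The genes most like Il21r, the receptor gene with the strongest summit, were found by the distance on log2 scales of 2 values, summits per 100 kb and strongest signal, over all protein-coding genes. Ehd1 was nearest (25.5 per 100 kb and 342.0, distance 0.02), followed by Shisa8 (26.2 and 338.1, distance 0.06) and Vmp1 (25 and 361.5, distance 0.07).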

How the data were processed

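IRF4 ChIP-seq peak lists of 2 biological replicates of CH12.LX were used. Per the labels and the deposited descriptions, relaxed lists, per replicate and pooled, fed the optimal and conservative IDR lists on mm10, and the mm9 list came from the alignments of both replicates. The peak caller and the aligner: not given in the sources used here. A control experiment that the labels name as possible was not used. The deposited signal of each peak is the value of the authors' caller, on a scale that is not stated; it was used within 1 list, and replicates were set side by side at matched summits. Depth per replicate is unknown.

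Summits were the peak start plus the offset. Gene bodies came from RefSeq GRCm38 and starts from RefSeq's promoter table; for Il10ra the 5′ end of the gene was used. Coordinates were not converted: on mm9, 9 of 9 RefSeq promoters were found whole in the genome, and distances were counted from them. Features came from GENCODE, from the transcript starting nearest. Its Il5ra gene starts inside the RefSeq one.

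The 10 genes and the further lists (72 of 72 symbols matched) were chosen with earlier results of these data known. Named were all 10 genes with up to 5 summits each, the 3 genes with the strongest summit of each list, genes sharing a summit, and the 3 genes most like the top one; a gene that the rule takes is not reported here. Summits beyond these were named after their values were seen. No test was made: 1 group of 2 replicates allows none. Python 3.11.15, numpy 2.4.6, pandas 2.3.3, scipy 1.17.1 and matplotlib 3.10.9 were used, and summit assignment and motif counts were tested on simulated data. Alternatives covered the list, the window, single replicates, the match distance and the motif window.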

Additional observations from a re-analysis of the deposited data

How the results depend on the processing

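Counts rest on the window and less on the list. With the gene body only, the receptor genes had 37 summits and a median of 2, and with 25 kb flanks a median of 6.5, against 65 and 3.5 in the window of 10 kb. Other settings were the conservative list, 5 kb and 25 kb flanks, close summits counted once, the top pooled ranks, single replicates and the mm9 list. Under these the count of summits ran from 51 to 76 and the genes with a summit from 9 to 10. With the gene body only, 8 genes had one. The share of all protein-coding genes was taken only for the 10 kb window in the optimal and conservative lists. Counts under the remaining settings have no such background. From a single replicate the strongest summit had a signal of 177.4 (at Il6ra, without replicate 2) to 183.5 (at Il21r, without replicate 1), against 346.5 (at Il21r) in the pooled values; each list has its own scale. Summits matched in both replicates numbered 54 within 50 bp, 64 within 250 bp and 48 among the strongest replicate peaks only. For these counts no share of all optimal summits was taken. An IRF element was at 5.88% of receptor peaks within 25 bp, against 10.4% of all peaks, and at 19.6% within 100 bp, against 19.7%. No paired analysis was possible because the samples form 1 group. Unknown depth limits all weak summits, and position does not tell which gene a site acts on.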

Other observations

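Of 11 genes for cytokines that these receptors bind, 8 had an IRF4 summit in the body or within 10 kb, all but Ifng, Il5 and Il7, beside 61.6% of all protein-coding genes. A summit of 200 or more was at 3 of the 11, beside 4.31% of all protein-coding genes. The median strongest signal of the 8 was 153.0. Il10 had 13 summits and the strongest signal of the list, 326.8 (158.5 in replicate 1 and 165.6 in replicate 2). Il21, a gene known for its expression in helper T cells, had 2 summits, the stronger with 241.9 (99.33 and 144.8). Il4, another cytokine gene of T cells, had 10 summits, the strongest with 214.0 (83.84 and 134.5). Expression of these genes was not measured in these files.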
